A study of Mus musculus with 18 samples.

Results

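Between day 20 and day 49 the wild-type rat heart had falls in 8 of 16 imprinted growth genes and 16 of 56 matrix genes, and rises in 20 of 27 interferon-response, 14 of 19 antigen presentation and 13 of 26 detoxification genes. Beside these, 4.53% of all 14217 genes rose and 7.62% fell by the same test. Among single genes, the troponin Tnni1 and the lipoxygenase gene Alox15 fell and the ketone enzyme gene Bdh1 rose by large amounts. The comparison sets 3 arrays of wild-type hearts at day 49 against 3 at day 20, chosen by the genotype and age in the sample descriptions, out of 18 arrays in the study. All 31042 probe sets that are not array controls were tested. The study followed wild-type rats and homozygous carriers of a titin splicing mutation, sampled on days 1, 20 and 49 after birth, with 3 arrays for each genotype and age. The mutation arose in Sprague-Dawley rats, which were crossed with Fisher 344 rats, and no drug or other treatment is named for any group. The design text describes RNA from the ventricles of single animals, whereas the sample titles speak of the whole heart. No source used here says which animals were littermates. The arrays of a group are therefore taken as separate animals. P-values from limma use the spread between animals within groups, pooled over all 6 groups and moderated across probe sets.

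At day 20 a rat pup is close to weaning, and at day 49 it is a young adult. In this span the heart grows mainly by enlarging its muscle cells, after most of them have stopped dividing. Fetal isoforms of contractile proteins give way to adult ones, growth-promoting imprinted genes are switched down and the diet changes from fat-rich milk to chow.

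The arrays fell apart by age. The first principal component of the 6 arrays held 54.8% of the variance and separated the ages, with 15.2% on the second. Correlations were 0.993 to 0.995 within day 20, 0.993 to 0.994 within day 49 and 0.983 to 0.988 between the ages, and the median SD of a probe set was 0.107 at day 20 and 0.118 at day 49 on the log2 scale. Technical signals also moved with age. Probe sets for Bacillus dap, a spike-in transcript added to an RNA sample during its preparation, read 3.25, 3.33 and 3.22 at day 20 and 5.97, 6.31 and 6.42 at day 49. The difference of 2.97 had an exact permutation p of 0.1, the smallest that 3 arrays against 3 allow. Mutant arrays showed the same split, with dap at 3.21 to 3.23 at day 20 and 6.18 to 6.92 at day 49, so age and this step of preparation cannot be told apart in either genotype. The gap between the 3′ and 5′ probe sets of Gapdh, a sign of RNA integrity, was 0.46, 0.90 and 0.36 at day 20 and 0.33, 0.36 and 0.35 at day 49 (exact permutation p = 0.2, two-sided). The same gap of beta-actin was 1.35, 1.90 and 1.32 at day 20 and 1.12, 1.23 and 1.24 at day 49, without overlap (difference -0.33, exact permutation p = 0.1, the smallest possible), and the part of RNA integrity in the changes with age was tested only through the Gapdh gap as a covariate. Day 20 array 2 and day 49 arrays 1 and 2 had Xist at 11.13 to 11.67, against 3.44 to 3.56 on the other 3, and Y-linked Eif2s3y was low on those same arrays at 3.03 to 3.23, against 8.18 to 8.46. Females were thus 1 of 3 animals at day 20 and 2 of 3 at day 49 by these transcripts. A probe set annotated to Y-linked Uty did not follow that split (-0.09 between the ages).

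In limma's moderated test, 2974 probe sets were called at a Benjamini-Hochberg adjusted p below 0.05, which is 9.58% of those tested. Of these, 1097 were higher at day 49 (3.53%) and 1877 lower (6.05%). Changes were mostly modest: the median size among called probe sets was 0.53 on the log2 scale, 138 were higher by a factor of 2 or more and 126 lower by as much. Arrays of the ages did not overlap in 2954 called probe sets, beside 9913 (31.9%) of all probe sets tested. The count of calls rested in part on single animals, and was 1794 and 1727 without day 20 array 1 or 2 and 1602 without day 49 array 1. By gene, 804 had a probe set that was higher and 1190 one that was lower, and 8 had both. Taking each gene's brightest probe set, 4.53% of 14217 genes were called higher and 7.62% lower, with a median difference of 0.01 over all genes. By sign alone, 7224 genes lay above 0 and 6993 below. Those shares are the background for the gene lists that follow. Just inside the threshold stood Ccdc3 at -0.60 ± 0.19 (SE, adjusted p = 0.0499), and just outside it Nr2c2 at 0.30 ± 0.09 (adjusted p = 0.05).

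**Figure D1:**
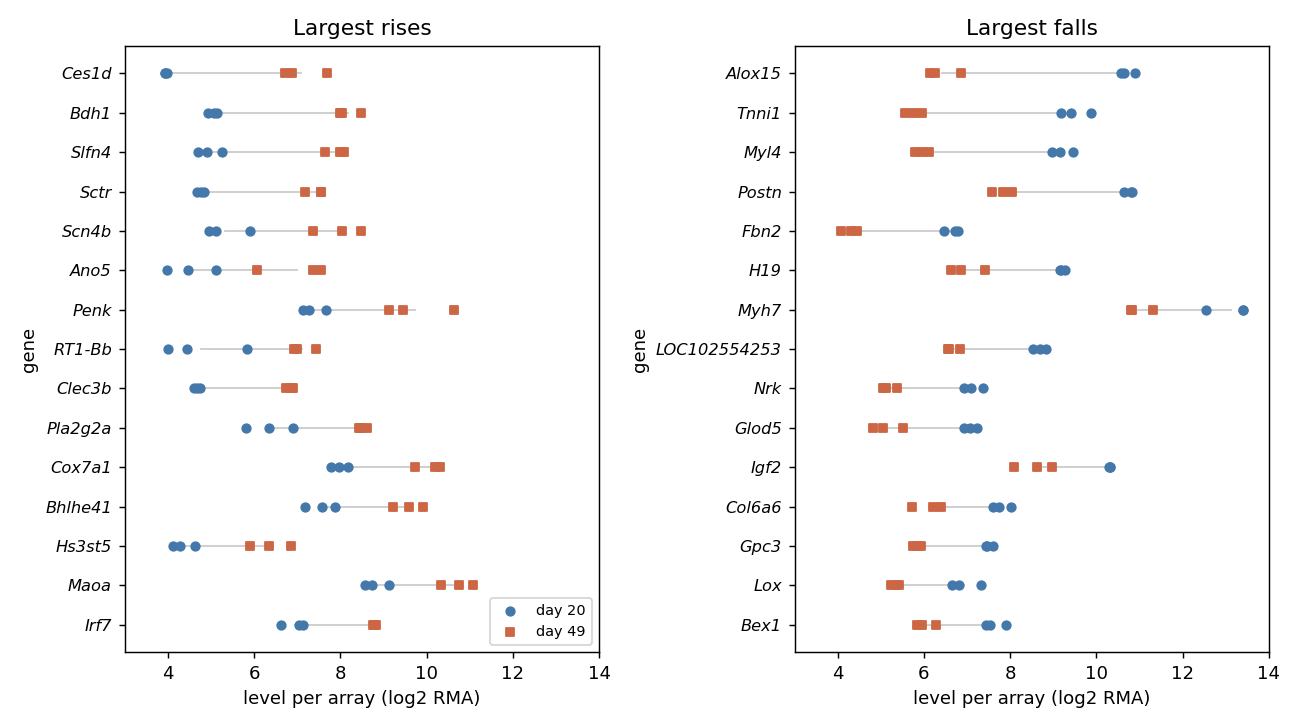
Log2 level on each array for the 15 largest rises (left) and 15 largest falls (right) among called probe sets with 1 gene symbol and no overlap between the ages. Blue circles are the 3 day 20 arrays and orange squares the 3 day 49 arrays; Alox15 spans the widest distance, from 10.57 or more at day 20 to 6.86 or less at day 49.

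Tnni1, Myl4 and Myh7, of the contractile filaments, fell by large amounts in a sarcomere list that had no common direction. Tnni1, the slow skeletal troponin I that the fetal heart uses before cardiac troponin I replaces it, read 9.87, 9.41 and 9.18 at day 20 and 5.78, 5.96 and 5.55 at day 49. It fell by 3.72 ± 0.20 on the log2 scale (SE, n = 3 per age; limma adjusted p = 9.45e-09), a factor of 13.2, and a second probe set fell by 2.99. Tnni3, the adult cardiac form, read 13.81, 13.75 and 13.85 and then 13.70, 13.82 and 13.75, which overlap, a difference of -0.05 ± 0.07 (adjusted p = 0.758). Myl4, the atrial and fetal essential light chain, read 9.45, 8.97 and 9.15 and then 5.80, 6.12 and 5.96, and fell by 3.23 ± 0.50 (adjusted p = 0.000503). Myh7, the slow beta-myosin heavy chain, read 13.39, 12.53 and 13.39 and then 11.30, 10.79 and 10.82, and fell by 2.14 ± 0.19 (adjusted p = 2.59e-06). A dimmer Myh7 probe set at -1.96 did not pass the test. Myh6, the fast alpha form of the adult rodent ventricle, differed by -0.09 ± 0.12 (adjusted p = 0.691) in its brighter probe set and by 0.54 in another that did not pass. The myosin heavy chains are close in sequence, and cross-reading between them was not tested.

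Of 38 measured sarcomere genes, 5 were called higher and 5 lower, with a median of -0.02. Tcap, which joins titin ends in the Z-disc, read 11.53, 11.57 and 11.61 and then 12.66, 13.03 and 12.66, and rose by 1.21 ± 0.14 (adjusted p = 2.91e-05). Ankrd23, a stretch-responsive partner of titin, rose by 1.23 ± 0.24 and Lmod3, which nucleates thin filaments, by 0.78 ± 0.10. Titin itself, Ttn, fell by 0.49 ± 0.10 (adjusted p = 0.00329), from 13.22, 13.27 and 13.15 to 12.73, 12.61 and 12.83. Rbm20, the regulator of titin splicing, read 10.60, 10.31 and 10.89 and then 10.29, 10.54 and 9.74, which overlap, and differed by -0.41 ± 0.20 (adjusted p = 0.234). The rises numbered 3 rather than 5 without day 20 array 1 or 2 or day 49 array 1 or 3. Of 16 muscle splicing regulators 4 fell and 0 rose, with a median of -0.21, among them Celf1, an RNA-binding protein of muscle (-0.44 ± 0.08). Of these 4, 1 or 2 fell when day 20 array 1 or 2 or day 49 array 1 or 3 was left out.

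Imprinted growth genes were lower in 14 of 16. H19, the imprinted non-coding RNA expressed beside Igf2, read 9.18, 9.26 and 9.15 at day 20 and 6.87, 6.63 and 7.41 at day 49, and fell by 2.23 ± 0.19 (adjusted p = 1.39e-06). Igf2, the fetal growth factor, read 10.30, 10.32 and 10.31 and then 8.08, 8.62 and 8.96, and fell by 1.76 ± 0.20 (adjusted p = 3.94e-05), while 3 dim probe sets of the gene stayed near 0. Among 16 measured imprinted genes 8 fell and 0 rose, with a median of -0.45. Mest fell by 1.29 ± 0.26 and Grb10, an adaptor that restrains insulin and IGF receptors by 0.70 ± 0.11. Igfbp3, a carrier that binds IGFs, fell by 1.33 ± 0.19 and the receptor Igf1r by 0.77 ± 0.15. A dimmer Igf1r probe set at -0.03 was not called. The growth hormone and IGF list of 19 genes had 5 falls, 0 rises and a median of 0.08. The imprinted falls numbered 5 without day 20 array 2 or day 49 array 2 or 3, and those of the IGF list 3 without day 20 array 1 or 3. Gpc3, a glypican of fetal growth, fell by 1.66 ± 0.20, and Bex1, a brain-expressed X-linked gene, by 1.60 ± 0.16.

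Cell division transcripts were low at both ages. Of 44 mitotic genes limma called 0 higher or lower, with 2 at an unadjusted p below 0.05 and a median of 0.10, and 35 lay below a level of 6 at both ages. Cks1b, a partner of cyclin-dependent kinases, read 8.67, 8.46 and 8.69 and then 8.42, 8.56 and 8.57 (-0.09 ± 0.11, adjusted p = 0.706; 0 after quantile scaling). Prc1, a protein of the division spindle, differed by 0.19 ± 0.22 (adjusted p = 0.646). Chosen after its values were seen, Mki67, the proliferation antigen, read 5.12, 5.28 and 5.15 and then 4.71, 5.29 and 5.33. From day 1 to day 20, by contrast, 43 of the 44 had been called lower, with a median of -2.91. By the same reading, 3102 of all 14217 genes were called lower over that interval and 2038 higher. Among all probe sets, 15.6% were called lower and 28.1% either way. Of 30 DNA replication genes 3 fell, near the 7.62% of all genes that did. They were the ribonucleotide reductase subunit Rrm1 (-0.69), the histone H2az1 (-0.46) and Pcna, the sliding clamp of DNA polymerases (-0.43). Without day 49 array 1 a single one fell, with H2az1 at an adjusted p of 0.0533 and Pcna at up to 0.115, and Pcna also lost its call without day 20 array 1 or 2 or day 49 array 3. The 19 ribosome biogenesis genes gave 0 calls in limma, 2 at an unadjusted p below 0.05 and a median of -0.11, with Odc1 at 0.22 ± 0.12 (adjusted p = 0.279) and Ncl at -0.26 ± 0.14 (adjusted p = 0.267).

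Matrix transcripts were lower in 49 of 56 genes, with a median of -0.31; 16 fell and 1 rose. Postn, the periostin of growing and healing matrix, read 10.83, 10.81 and 10.65 at day 20 and 7.84, 8.04 and 7.57 at day 49, and fell by 2.95 ± 0.23 (adjusted p = 4.67e-07). Fbn2, the fibrillin of developing tissue, read 6.72, 6.46 and 6.80 and then 4.45, 4.08 and 4.30, and fell by 2.38 ± 0.19 (adjusted p = 4.67e-07). Lox, which crosslinks collagen and elastin, fell by 1.40 ± 0.22 and 1.60 ± 0.22 in its probe sets, and Mmp14, a membrane-bound matrix protease, by 0.97 ± 0.19. Col8a1, a short-chain collagen, went the other way, from 6.02, 6.55 and 5.91 to 7.80, 7.22 and 7.99, a rise of 1.51 ± 0.26 (adjusted p = 0.00123). Outside the list, Col6a6, a collagen VI chain, fell by 1.68 ± 0.16. The falls numbered 10 without day 20 array 2 or day 49 array 1 or 2.

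Fibroblast markers did not fall as a group: of 12, Col1a1 (-0.60 ± 0.17) and Tcf21 (-0.57 ± 0.11) fell and Gsn rose (0.46), with a median of -0.03 and a mean level of 9.94 to 10.17 at day 20 and 9.90 to 10.11 at day 49. Pdgfra, a defining marker, differed by -0.25 ± 0.14 (adjusted p = 0.309). In bulk tissue, fewer cells of a type and less RNA per cell cannot be told apart. The call of Col1a1 in this brightest probe set ended without any array except day 20 array 3 (adjusted p up to 0.157). It also ended with quantile scaling and with the Gapdh gap as a covariate. A dimmer Col1a1 probe set fell more, from a mean of 10.67 to 9.71 (-0.96 ± 0.14, limma adjusted p = 0.00035). Its call was not followed with arrays left out. The call of Gsn ended without day 20 array 1 or day 49 array 3 (up to 0.0626).

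Bdh1 and Oxct1, enzymes of ketone use, rose within a list of fuel genes that moved little as a whole. Bdh1, the mitochondrial dehydrogenase that starts the oxidation of beta-hydroxybutyrate, read 5.08, 4.94 and 5.13 at day 20 and 7.99, 8.03 and 8.49 at day 49. It rose by 3.12 ± 0.19 (adjusted p = 2.28e-08) in that probe set and by 2.78 ± 0.13 in another. Oxct1, the transferase that activates acetoacetate, read 11, 10.92 and 10.95 and then 12.09, 12.37 and 12.22, a rise of 1.27 ± 0.19 (adjusted p = 0.00035). Within the 51 genes of fatty acid and ketone metabolism 8 rose and 3 fell, with 19 below 0 and a median of 0.12. Dgat1, which completes triglyceride synthesis, rose by 0.85 ± 0.11 and Lpl, which releases fatty acids from lipoproteins, by 0.76 ± 0.14. Ucp3, a mitochondrial carrier induced by fatty acids, fell by 1.49 ± 0.30 from scattered day 20 levels of 7.29, 8.80 and 8.64, and Cpt1a, the liver form of the carnitine transferase, fell by 0.54 ± 0.14. Hadha, of the beta-oxidation spiral, differed by -0.33 ± 0.19 (adjusted p = 0.325).

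Glucose handling genes moved both ways. Of 36 genes 6 rose and 3 fell, beside 4.53% and 7.62% of all genes, with a median of 0.14. Hk2, the insulin-regulated hexokinase, rose by 1.09 ± 0.16, from a mean of 4.74 to 5.83, below a level of 6 at both ages. The muscle enolase Eno3 rose by 0.80 ± 0.18 and the insulin-responsive transporter Slc2a4 by 0.66 ± 0.13. Pfkp, the platelet phosphofructokinase, fell by 1.04 ± 0.14. Cox7a1, the muscle subunit of cytochrome oxidase, read 7.78, 8.18 and 7.97 and then 9.74, 10.20 and 10.31, and rose by 2.11 ± 0.18 (adjusted p = 9.2e-07). It stood apart among 47 TCA cycle and respiratory chain genes, of which 5 rose and 0 fell, with a median of 0.08; the next in size, Ckmt2, the mitochondrial creatine kinase, rose by 0.60. The list's rises were 3, 1 and 2 without day 20 arrays 1, 2 and 3 and 2, 2 and 3 without day 49 arrays 1, 2 and 3, and the call of Ckmt2 ended without any of the 6 (adjusted p up to 0.115), with median centring, quantile scaling or Xist as a covariate. Of 20 sterol and fatty acid synthesis genes 3 rose, among them the malic enzyme Me1 (0.95 ± 0.15), and Acly, which supplies acetyl-CoA, fell (-0.48), with a median of 0.00. The rises were 1 without day 20 array 3 or any day 49 array. Ces1d, a carboxylesterase that hydrolyses lipid esters, had the largest rise among named genes, from 3.94, 3.99 and 3.93 to 6.88, 6.72 and 7.70 (3.15 ± 0.21, adjusted p = 4.74e-08). Carboxylesterases form a family of close copies, so the family member behind this signal is uncertain.

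**Figure D2:**
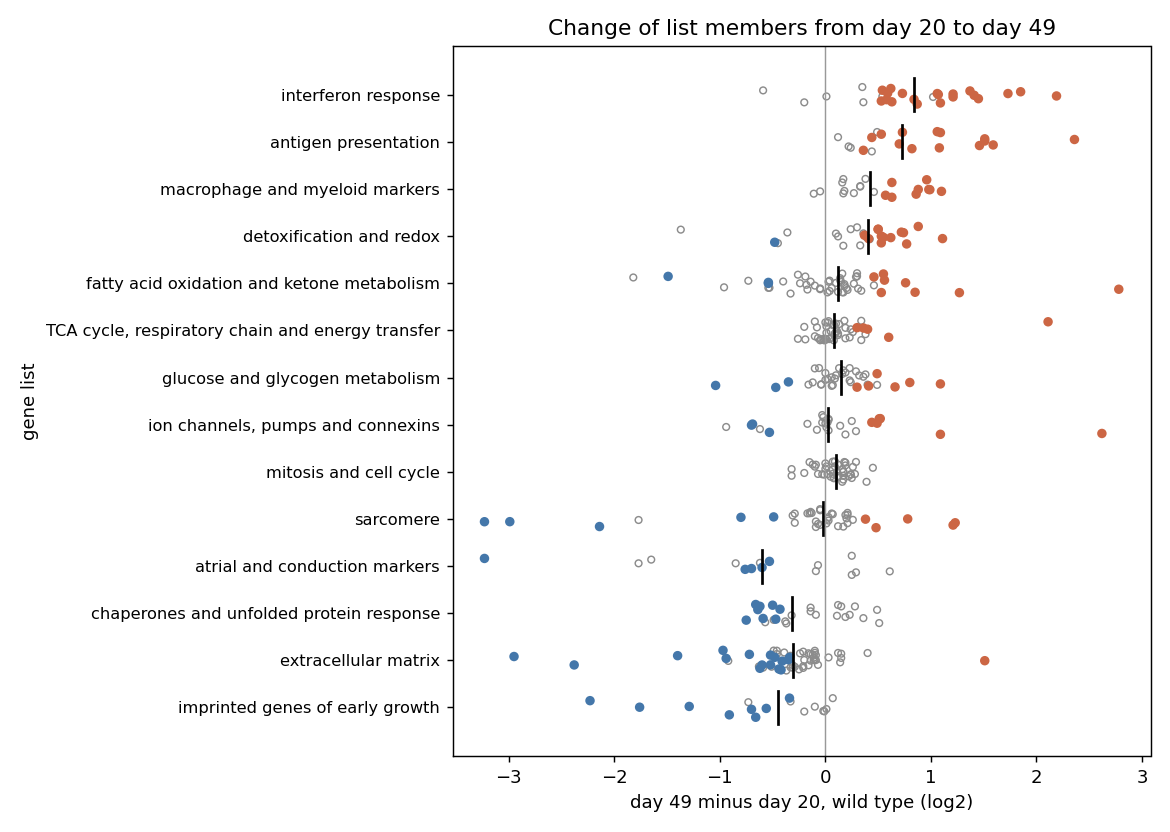
Difference between day 49 and day 20 in log2 units for each measured member of 14 gene lists. Each dot is a gene, filled where called, and the black bar is the list's median, which is 0.84 for the interferon response, 0.73 for antigen presentation and -0.31 for the extracellular matrix.

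Interferon-response transcripts rose broadly. Irf7, the factor that amplifies interferon signalling, read 7.14, 7.05 and 6.63 at day 20 and 8.76, 8.83 and 8.78 at day 49, and rose by 1.85 ± 0.26 (adjusted p = 0.000201). Of 27 measured genes 25 lay above 0, 20 rose and 0 fell, with a median of 0.84. Igtp, an interferon-induced GTPase, rose by 1.73 ± 0.19, the antiviral GTPase Mx1 by 1.45 ± 0.18 and the ubiquitin-like Isg15 by 1.41 ± 0.28. Mx1 lay below a level of 6 at both ages, at means of 4.21 and 5.66. Mx2 rose by 2.19 ± 0.57, but 1 of the day 49 arrays did not move, at 6.71, 6.57 and 3.46 against 3.47, 3.41 and 3.28. The call of this probe set ended without any array except day 49 array 3 (adjusted p up to 0.128). Another Mx2 probe set, also dim, rose from a mean of 4.46 to 5.28 (0.82 ± 0.19, limma adjusted p = 0.00863). Its call was not followed with arrays left out. Slfn4, a schlafen of myeloid cells, rose from 5.25, 4.92 and 4.71 to 7.65, 7.99 and 8.08 (2.95 ± 0.31, adjusted p = 1.51e-05), with a second probe set at 0.29.

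Antigen presentation moved the same way. B2m, the light chain of MHC class I, read 11.84, 11.95 and 11.89 and then 12.88, 13.09 and 12.99, a rise of 1.09 ± 0.11 (adjusted p = 1.2e-05). All 19 measured genes of the list lay above 0, 14 rose and 0 fell, with a median of 0.73. The class II chains RT1-Bb, RT1-Da and RT1-Db1 rose by 2.36 ± 0.40, 1.59 ± 0.22 and 1.51 ± 0.17, and the immunoproteasome subunits Psmb8 and Psmb9 by 1.51 ± 0.18 and 1.46 ± 0.20. RT1-Bb was scattered at day 20, at 5.84, 4.0 and 4.44, against 6.99, 7.44 and 6.93. A dimmer RT1-Bb probe set at 0.03 was not called. MHC genes have close copies and many alleles in rats, and cross-reading between copies was not tested.

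Macrophage and lymphocyte markers moved beside these lists. Of 20 macrophage and myeloid markers 9 rose and 0 fell, with a median of 0.42 and a mean level of 5.87 to 6.00 at day 20 and 6.30 to 6.51 at day 49. Among them C1qc and C1qa, of the complement component that tissue macrophages make, rose by 1.10 ± 0.23 and 0.98 ± 0.15, the pan-leukocyte Ptprc by 0.99 and Cd53 by 0.96 ± 0.13. Lyve1 and Cd163, marks of resident macrophages, differed by -0.05 ± 0.24 and 0.17 ± 0.27 (adjusted p = 0.924 and 0.751). Of 15 T, B and NK cell markers 4 rose, the granule protease Gzmb by 0.85 among them, but 14 of the 15 were below a level of 6 at both ages. That list's mean level was 4.57 to 4.72 and then 4.87 to 5.04, Cd3e of the T cell receptor differed by 0.08 ± 0.12 (adjusted p = 0.726), and 1 or 2 members rose without day 20 array 1 or 2 or day 49 array 3. Of 8 genes listed as thymocyte markers 3 were measured, 2 of them below a level of 6 at both ages. Of these 3 only Cd1d1 was called, a rise of 1.54 ± 0.17, too little to read as a sign of thymocytes. Of 12 complement and acute phase genes 3 rose and 0 fell, with a median of 0.37, led by C1s (1.44 ± 0.24). The part of leukocyte number in the interferon and MHC rises was not tested.

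Detoxification and redox enzymes rose in 13 of 26, with 1 fall, which was not called without day 20 array 1 or 2 or day 49 array 1 or 3, and a median of 0.40. Gstm2, a glutathione transferase, read 8.76, 8.62 and 8.56 and then 9.76, 9.81 and 9.69, a rise of 1.11 ± 0.17 (adjusted p = 0.000559). Nqo1, a quinone reductase, rose by 0.88 ± 0.18, Aldh1a1, a retinal dehydrogenase, by 0.77, the extracellular glutathione peroxidase Gpx3 by 0.74 and the epoxide hydrolase Ephx1 by 0.72 ± 0.10. The related Ephx2 read 9.08, 9.01 and 8.95 and then 8.24, 7.48 and 7.22, without overlap, yet did not pass (-1.37 ± 0.55, adjusted p = 0.136). Maoa, the oxidase of serotonin and noradrenaline, rose from 8.73, 9.14 and 8.57 to 10.34, 10.76 and 11.07 (1.91 ± 0.27, adjusted p = 0.00025).

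Chaperones and genes of the unfolded protein response gave falls and no rise. Hspa5, BiP, the main chaperone of the endoplasmic reticulum, read 11.23, 11.17 and 11.23 and then 10.52, 10.60 and 10.53, and fell by 0.66 ± 0.12 (adjusted p = 0.0017). Of 25 genes 8 fell and 0 rose, with 9 above 0 and a median of -0.32. Creld2 fell by 0.75 ± 0.19, the disulfide isomerase Pdia4 by 0.64 ± 0.13, the secreted stress factor Manf by 0.62 ± 0.13 and Xbp1, a transcription factor of the unfolded protein response, by 0.59 ± 0.11. The call of Creld2 ended without day 20 array 2 or 3 or day 49 array 1 or 3 (adjusted p up to 0.0603). In the mutant 1 of the list rose and 3 fell over the same span, with a median of -0.11, and a difference between the genotypes was called for 0 members.

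The circadian clock list held large rises without a common direction. Dbp, a transcription factor driven directly by the clock, read 8.21, 7.98 and 7.73 and then 9.24, 9.60 and 9.70, a rise of 1.54 ± 0.15 (adjusted p = 5.24e-06). Bhlhe41 and Bhlhe40, clock-linked repressors, rose by 2.03 ± 0.26 and 1.15 ± 0.22 and the nuclear receptor Nr1d1 by 1.41 ± 0.23, while the repressor Cry1 fell by 0.77 ± 0.20. In all 4 of 18 clock genes rose and 2 fell, with 8 below 0 and a median of 0.04. No source used here gives the hour at which hearts were taken. Of 17 glucocorticoid response genes 1 fell, Errfi1 (-0.81), and of 20 genes of thyroid hormone handling and response 2 rose and 2 fell, the latter being Myh7 and Ucp3. Of 23 immediate early genes Junb (0.83 ± 0.19) and Fos (0.47) rose and Ier5 (-0.45) fell. The calls of Cry1 and Ier5 ended without day 20 array 1 or 2 or day 49 array 1, that of Fos without these or day 49 array 3 (adjusted p up to 0.193), and that of Errfi1 without day 20 array 3 or day 49 array 1.

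Among ion channels, pumps and connexins 6 of 26 rose and 3 fell, with a median of 0.02. Scn4b, a beta subunit of the cardiac sodium channel, read 5.12, 5.91 and 4.95 and then 8.03, 8.47 and 7.36, a rise of 2.62 ± 0.31 (adjusted p = 4.87e-05). Kcnd2, a pore subunit of the transient outward potassium current, rose by 1.09 ± 0.17, and the connexins Gja5 and Gjc1 fell by 0.70 ± 0.17 and 0.69 ± 0.12. The rises numbered 3 without day 20 array 1 or 3 or day 49 array 1, and the falls 1 without day 49 array 1. Of 32 calcium handling genes 2 rose and 4 fell, beside 4.53% and 7.62% of all genes, with a median of -0.08. They included the L-type channel Cacna1c (-0.46), the exchanger Slc8a1 (-0.39) and Mcu, the mitochondrial uniporter (0.38). Dimmer probe sets of Cacna1c at 0.17 and Slc8a1 at 0.41 were not called. The rises were 1 without day 20 array 1, 2 or 3 or day 49 array 1 or 3: Mcu lost its call without day 20 array 2 (adjusted p up to 0.0608), and Asph, an aspartate hydroxylase gene that also encodes junctin (0.42), without the others (up to 0.0911). The dimmer Asph probe sets disagreed in direction: 0.48 was called higher, while -0.41 and -0.49 were not called. Of 27 adrenergic, muscarinic and peptide signalling genes 4 fell and 0 rose, with a median of 0.03: Rgs2, a brake on G proteins (-0.98 ± 0.21), the cyclase Adcy6 (-0.72 ± 0.14), Prkaca, the catalytic subunit of protein kinase A (-0.72 ± 0.21), and the angiotensin receptor Agtr1a (-0.70 ± 0.18). These were 2 without day 20 array 2 or day 49 array 1 or 3, when Prkaca and Agtr1a lost their calls (limma adjusted p up to 0.184). Prkaca did so without day 20 array 1 and with the Xist or Gapdh covariate as well, and Agtr1a without day 49 array 2. Agtr1a lay below a level of 6 at both ages, at means of 5.18 and 4.49. Other probe sets of Adcy6 at 0.01 and Agtr1a at -0.08 were not called.

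Wall stress markers showed no common direction. Of 21 genes Nmrk2, a nicotinamide riboside kinase, rose (0.96 ± 0.17) and Postn and Myh7 fell, with a median of 0.07. The natriuretic peptide genes Nppa and Nppb differed by -0.85 ± 0.33 (adjusted p = 0.124) and 0.59 ± 0.24 (adjusted p = 0.13), and Acta1, the skeletal actin of the fetal heart, by -0.31 ± 0.12 (adjusted p = 0.13).

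The labelled tissue carried its markers: 11 of 11 ventricular cardiomyocyte markers lay above a level of 6, with a mean level of 12.75 to 12.83 at day 20 and 12.68 to 12.76 at day 49. Irx4, a ventricular transcription factor, fell by 0.99 ± 0.20, and Hspb7 rose by 0.30, a call that ended without any array except day 49 array 2 (adjusted p up to 0.132). A dimmer Hspb7 probe set rose by 0.54 ± 0.10 (limma adjusted p = 0.00163), a call not followed with arrays left out. Atrial and conduction markers were present at both ages and lower at day 49, with 5 falls among 15, 0 rises, a median of -0.60 and a mean level of 7.65 to 7.83 against 6.98 to 7.25. Besides Myl4, Gja5 and Kcnj5 (-0.53 ± 0.14), Tbx5, a transcription factor of atria and conduction tissue, fell by 0.76 ± 0.18 and the secreted Dkk3 by 0.60 ± 0.12. Myl7, the atrial regulatory light chain, varied between animals, at 11.09, 9.44 and 10.36 and then 6.56, 10.67 and 8.34, with overlap (-1.77 ± 0.90, adjusted p = 0.243). How much atrium each sample held was not tested. The falls numbered 3 without day 20 array 2 and 2 without day 49 array 1, and in the latter case Tbx5 and Gja5 lost their calls (adjusted p up to 0.0818). Kcnj5 lost its call without any array except day 49 array 2 (limma adjusted p up to 0.0948), and Tbx5 also without day 20 array 2. Dimmer probe sets of Kcnj5 at 0.39 and Gja5 at 0.04 were not called.

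Erythroid markers gave 2 falls among 11 and a median of -0.31. Tfrc, the transferrin receptor, read 11.79, 11.57 and 11.73 and then 10.68, 10.60 and 10.31, and fell by 1.17 ± 0.23 (adjusted p = 0.00348). Ahsp, the stabiliser of alpha-globin, fell by 1.45 ± 0.43, a call that ended without any array except day 20 array 3 (adjusted p up to 0.163) and with the Xist or Gapdh covariate, while Hbb stayed at 13.28 to 13.66 and 13.12 to 13.33. Of 22 endothelial markers Nos3 (0.57) and Erg (0.41) rose and Cldn5 (-0.79) and Vwf (-0.54) fell, with a median of 0.07. Without day 20 array 2 the fall of Cldn5 was not called (adjusted p up to 0.0657) and 1 rise and 0 falls were left, and without day 20 array 3 or day 49 array 3 both rises were not called. Erg also lost its call without day 20 array 1 or 2 or day 49 array 1 (up to 0.209), Nos3 without day 49 array 2, and Vwf without day 20 array 1 or 2 or day 49 array 1 or 2. Plin1, of lipid droplets, was the 1 call among 12 adipocyte markers (0.44, from a mean of 4.37 to 4.80). Its limma adjusted p was up to 0.109 without day 20 array 1 or 2 or day 49 array 1. Limma gave 0 calls among 13 smooth muscle, 16 skeletal muscle, 11 nerve, 8 mesothelial and 7 mast cell markers, with 2, 1, 0, 1 and 2 at an unadjusted p below 0.05. Smooth muscle markers had Acta2 at -0.50 ± 0.35 (adjusted p = 0.414) and Synpo2 at 0.04 ± 0.12 (0.00 without day 20 array 3), and skeletal muscle markers had Myh1 at 0.50 ± 0.20 (adjusted p = 0.134) with 15 of 16 below a level of 6. Another Myh1 probe set, not the brightest that stands for the gene, was called higher (0.62 ± 0.16, limma adjusted p = 0.0174). A dimmer Myh1 probe set at -0.43 was not called. Cross-reading between Myh1 and the cardiac myosin heavy chains was not tested. Nerve markers had Scn7a at -0.24 ± 0.28, mesothelial ones Aldh1a2 at -0.48 ± 0.15 (adjusted p = 0.0506) and mast cell ones Cma1 at 0.25 ± 0.11 (adjusted p = 0.155).

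Other large changes belonged to no list. Ano5, an anoctamin of muscle, rose from 3.97, 5.12 and 4.46 to 7.56, 7.37 and 6.06 (2.48 ± 0.31, adjusted p = 8.94e-05), and was at 0.23 in the mutant, where the difference between the genotypes did not pass (interaction adjusted p = 0.184). Clec3b, the plasminogen-binding tetranectin, rose by 2.17 ± 0.45, Pla2g2a, a secreted phospholipase, by 2.16 ± 0.37 and Hs3st5, a heparan sulfate sulfotransferase, by 2.03 ± 0.18. Falls were those of Nrk, a kinase best known from the placenta, by 1.94 ± 0.22, Glod5 by 1.94 ± 0.22 and LOC102554253 by 2.03 ± 0.12. Each of these kept its call whichever of the 6 arrays was left out.

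Alox15, a lipoxygenase of macrophages and other leukocytes that forms hydroxy fatty acids, had the largest change of any named gene. It read 10.90, 10.65 and 10.57 at day 20 and 6.15, 6.25 and 6.86 at day 49, and fell by 4.29 ± 0.48 (adjusted p = 2.98e-05), a factor of 19.5. At day 1 it had been at a mean of 7.34, so that its level was highest at day 20. Means at all 3 wild-type ages showed steady courses and passing ones. The step from day 1 uses the same day 20 arrays, so the steps are not independent. The dap spike-in read 3.20 to 3.26 on wild-type day 1 arrays, near its day 20 level. Only the step from day 20 to day 49 thus crosses the change in spike-in signal. In that step age and preparation cannot be told apart. Steady losses were those of Tnni1, with means of 12.84, 9.49 and 5.76 at days 1, 20 and 49, Myl4 (13.36, 9.19 and 5.96) and H19 (12.13, 9.20 and 6.97). Steady gains were those of Dbp (6.09, 7.97 and 9.51) and Tcap (9.21, 11.57 and 12.78).

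Other genes turned at day 20, after which the spike-in signal changed as well. Hspa5 had means of 10.56, 11.21 and 10.55, Ucp3 of 6.14, 8.24 and 6.75 and Tfrc of 10.59, 11.70 and 10.53, each with its highest mean at day 20. Bdh1 and Penk were lowest then. Bdh1 had means of 5.83, 5.05 and 8.17, with a fall of 0.78 to day 20 (adjusted p = 0.00449). Penk, the enkephalin precursor, had means of 9.95, 7.36 and 9.74, and rose by 2.38 ± 0.36 from day 20 to day 49 (adjusted p = 0.000403). Irf7 stood at 6.98, 6.94 and 8.79.

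**Figure D3:**
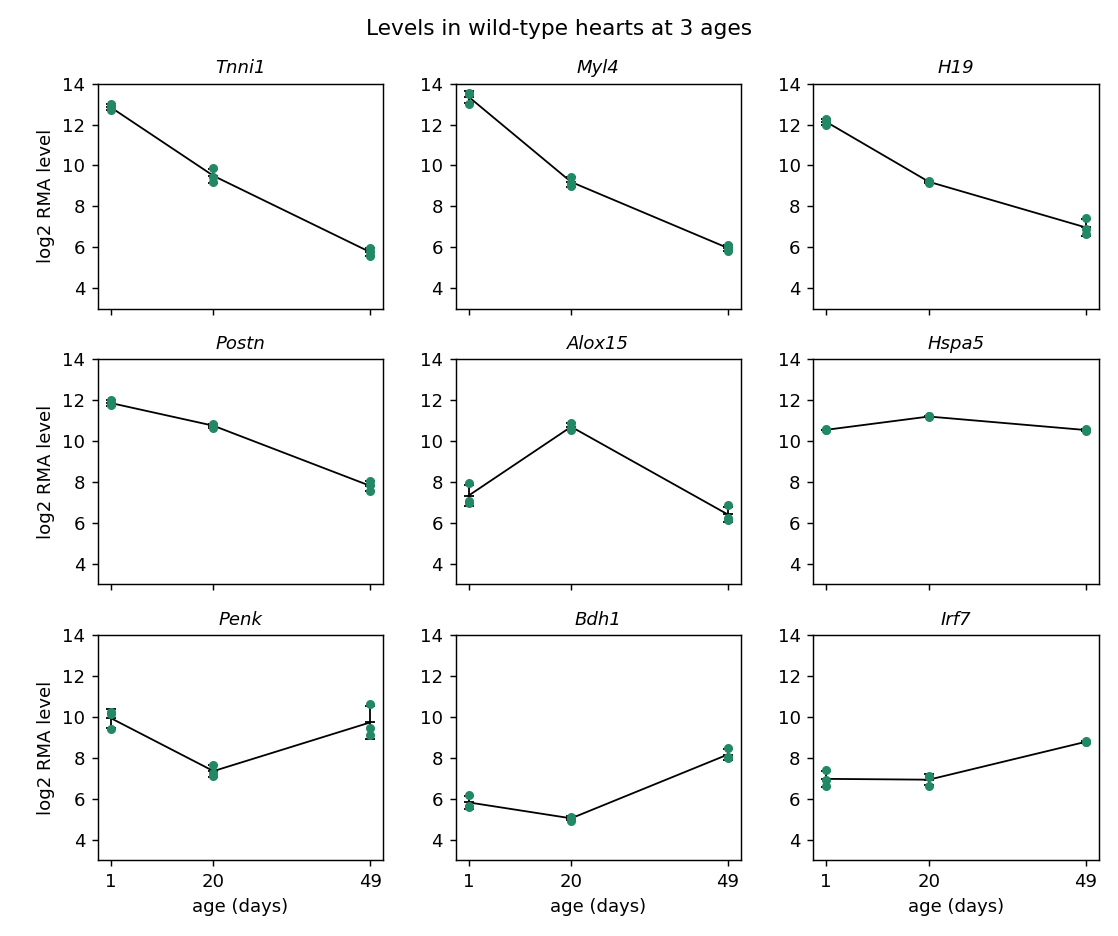
Log2 level of 9 genes in wild-type hearts against age in days, with a point for each of 3 arrays per age and the mean ± SD. Tnni1, Myl4 and H19 step down at both intervals, Alox15 and Hspa5 are highest at day 20, Penk and Bdh1 are lowest at day 20, and Irf7 and Bdh1 are highest at day 49.

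The mutant hearts, homozygous for the titin splicing mutation, were compared over the same ages. In all 3151 probe sets were called in the mutant (10.2%; 3.92% higher and 6.23% lower), 1794 of them called in the wild type in the same direction and 3 in the opposite one. Of the wild-type calls, 98.7% had the same sign in the mutant, a share that was not computed over all probe sets. The changes correlated at r = 0.8 across probe sets, which are not independent replicates and share the age split of the spike-in signal. By each gene's brightest probe set, 658 of all 14217 genes were called higher in the mutant and 1069 lower. The interferon list had 20 rises and a median of 0.77 in the mutant and the antigen presentation list 12 rises and a median of 0.71. The matrix list had 11 falls and a median of -0.09 in the mutant, beside 16 and -0.31 in the wild type, and the imprinted list 4 falls and a median of -0.29, beside 8 and -0.45. Detoxification genes had 11 rises, 2 falls and a median of 0.35, clock genes 7 rises, 3 falls and a median of 0.32, and fatty acid and ketone genes 6 rises, 5 falls and a median of -0.05; these differences between lists were not tested as such. A difference between the genotypes in the change with age, tested as an interaction in limma, was called for 6 probe sets (0.0193%), with 926 at an unadjusted p below 0.05. A call in 1 genotype alone does not show that the genotypes differ.

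Sctr, the receptor of the gut hormone secretin, differed most clearly. In the wild type it read 4.85, 4.67 and 4.77 at day 20 and 7.55, 7.55 and 7.17 at day 49, a rise of 2.66 ± 0.15. In the mutant it went from 4.20, 4.74 and 4.83 to 5.19, 5.67 and 5.45, a rise of 0.85 ± 0.15, so that the changes differed by 1.81 ± 0.22 (interaction adjusted p = 0.00448). Ccl5, a chemokine of T cells and platelets, rose less in the wild type, by 0.99 against 2.60 in the mutant (-1.60 ± 0.23, adjusted p = 0.0183). Bex1 fell by 1.60 in the wild type and was at -0.22 in the mutant (-1.39 ± 0.22, adjusted p = 0.0398), and Prkaca fell in the wild type and rose by 1.12 in the mutant (-1.84 ± 0.30, adjusted p = 0.043). The other 2 called probe sets, 1391481_at and 1371394_x_at, have no single gene symbol in the annotation.

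Between 1 and 8 probe sets were called for this difference when 1 of the 12 arrays was left out, with 1 call left without mutant day 20 array 3 or mutant day 49 array 3. Sctr kept its call in each of those fits. Myh7 fell by 2.14 in the wild type and was at -0.61 in the mutant, but the difference did not pass (interaction adjusted p = 0.106).

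**Figure D4:**
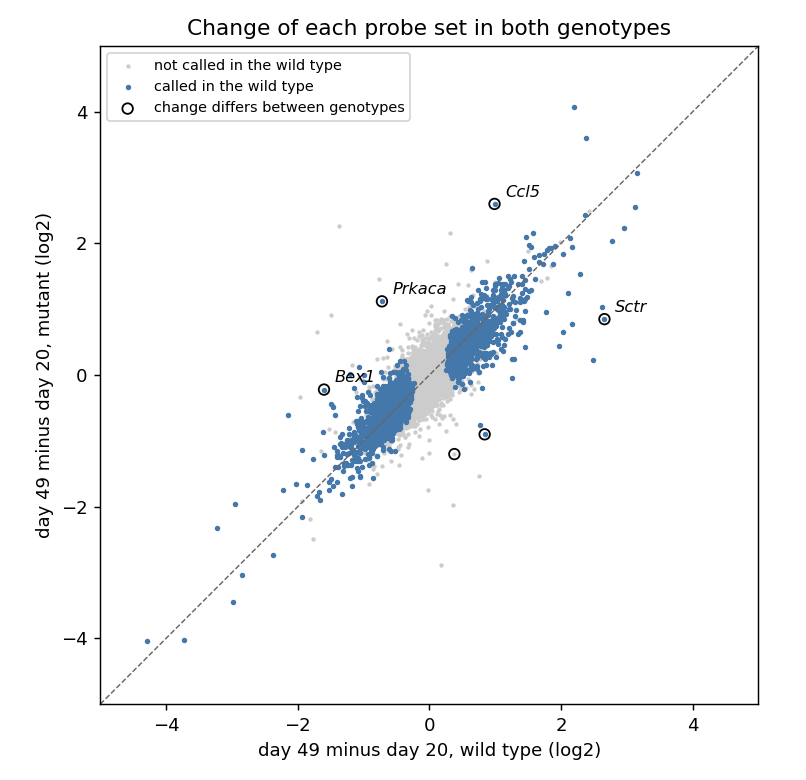
Change from day 20 to day 49 in the mutant (vertical axis, log2) against that in the wild type (horizontal axis, log2) for the probe sets tested, with the 6 called for a difference between the genotypes circled. Sctr lies at 2.66 and 0.85, Ccl5 at 0.99 and 2.60, and the other circled probe sets lie off the diagonal where both changes are equal.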

How the data were processed

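RNA of 18 rat hearts was read on Affymetrix rat arrays. The authors processed the scans by RMA, a robust average over the probes of a probe set, per the submitters' processing notes, which give no version. The deposited table gives 1 log2 level for each probe set and array, used as it stands; RMA gives dim probe sets a level that is mostly background and compresses their differences. Of 31099 probe sets, 57 controls were left out. In the platform annotation 20826 of the others had 1 gene symbol, 436 several and 9780 none, and only the first kind was named. All 6 groups entered 1 model in limma 3.58.1 (R 4.3.3; lmFit, eBayes) with 12 residual and 5.77 prior degrees of freedom, contrasts within it, two-sided tests and Benjamini-Hochberg adjustment over 31042 probe sets; called means an adjusted p below 0.05. Errors of differences are standard errors. The fit was tested on simulated data.

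The comparison and the 40 gene lists (911 genes) were chosen with earlier results of these data known. Each gene in a list was read by its brightest probe set, and a list is described by counts and its median, with no test of its own. Named genes were the 15 largest called rises and falls with 1 symbol and no overlap between ages, up to 5 called members per list or 2 where none was called, Ttn, Rbm20, Nppa, Nppb, Myh6, Myh7, Acta1 and Igf2, and up to 10 genes called for the genotype difference. Further list members and defining cell markers were named after their values were seen. Depth has no counterpart on arrays, and 3 animals per group limit the precision. Descriptions, strains and array are rat, although the organism given in the labels is mouse. Alternatives were other scalings, a minimum level of 6, the wild-type arrays alone, an intensity trend, array weights, a replicate block, Xist and Gapdh covariates, 1 probe set per gene, and leaving out each array.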

Additional observations from a re-analysis of the deposited data

Results flagged for a closer look

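For 6 probe sets the change from day 20 to day 49 differed between wild type and mutant by limma's interaction test (wild-type change minus mutant change, log2). Sctr differed by 1.81 and kept its call under each alternative in which it was tested. Unnamed probe set 1391481_at differed by 1.74 ± 0.24 (adjusted p = 0.0183), with means of 7.03 and 7.87 in the wild type and 6.95 and 6.05 in the mutant. Ccl5 differed by -1.60, with mutant arrays at 6.39, 6.23 and 6.04 and then 8.87, 8.79 and 8.80. Unnamed probe set 1371394_x_at differed by 1.58 ± 0.23 (adjusted p = 0.0183), with wild-type means of 10.50 and 10.87 and mutant means of 9.79 and 8.59. Bex1 differed by -1.39, and in the mutant its means were 8.53 and 8.31. Prkaca differed by -1.84, with mutant means of 8.28 and 9.40.

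The Bacillus dap controls, which stand outside the comparison, were 2.97 higher at day 49 than at day 20 in the wild type. Over all dap, lys, phe and thr probe sets the arrays read 3.44, 3.49 and 3.44 and then 4.62, 4.76 and 4.81. Hybridization controls, added later in the procedure, read 9.67 ± 0.22 (SD, n = 3) and 9.99 ± 0.16 (exact permutation p = 0.1).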

How the results depend on the processing

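Against 2974 calls (1097 higher and 1877 lower), array weights gave 4787 (1910 and 2877) and 1 probe set per gene, with fewer probe sets tested, 1950 (723 and 1227). Leaving out 1 wild-type array gave 1602 to 2591 calls, 657 to 932 higher and 933 to 1659 lower. For the genotype difference array weights gave 12 calls in place of 6, and leaving out 1 array 1 to 8. Of 139 called probe sets of named genes, 98 kept their call whichever wild-type array was left out, and none of them changed direction under any alternative run. With Xist as a covariate 2733 were called, and with the Gapdh gap 3030. Of the 139, 11 lost their call with the Gapdh gap, 7 with quantile scaling, 6 each with median centring, the wild-type arrays alone and Xist, 4 with centring on the middle probe sets, 2 with the block and 1 with an intensity trend; among genes named above, these were Col1a1, Prkaca, Ahsp, Vwf, Erg, Ckmt2, Hspb7, Mx2, Fos and Ier5. Without a call of its own, Cks1b was at 0 after quantile scaling and Synpo2 lay between 0 and 0.10 with 1 array left out (0 without day 20 array 3), while Uty was at 0.03 with the Gapdh gap and between -0.22 and 0.11 with 1 array left out (0.11 without day 20 array 2, 0.04 without day 49 array 3). With the replicate block 3054 were called, and 7 for the genotype difference. Arrays of the same number share only that number: their deviations correlated at -0.11, 0.14 and 0.06, and not every array correlated best with its own number.

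Of the calls, 610 lay below a level of 6 at both ages, where background compresses differences. The minimum level of 6 left 2749 calls (750 higher and 1999 lower). It also cut the interferon rises to 13 and the T, B and NK cell rises to 0, since dim members were not tested. Replication falls numbered 10 with the wild-type arrays alone, 9 with the Gapdh gap and 8 with array weights, glucose rises 12 after quantile scaling, 13 with array weights and 10 with the block, and calcium handling calls 3 higher and 7 lower with the wild-type arrays alone. The causes were not tested, and age remains tied to the spike-in signal in every fit.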
